A study of Homo sapiens with 18 samples.

Results

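The step from 2 to 7 additional stringent wash cycles was followed in 8 of the 18 scans of the washing experiment. The members were chosen by title: scans taken after 7 additional cycles were paired with the scans of the same array and the same series taken after 2, which gives the 4 pairs A7 and A6, A3 and A2, B7 and B6, and B3 and B2. All 54675 probe sets were described, and no measured value entered the choice of scans.

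RNA from untreated FTC-133 cells, an established line of a human follicular thyroid carcinoma, was labelled with biotin, and aliquots of the same hybridization mix were put on the human genome arrays A, B and C. Array A had no stringent cycle before its staining, array B had 2 and array C had 6, as in the standard protocol. After the first series of washes and scans every array was stained again and taken through the second series. The 4 scans at 7 additional cycles followed a total of 24 stringent cycles (A7), 7 (A3), 28 (B7) and 9 (B3), and the 4 scans at 2 additional cycles followed a total of 19 (A6), 2 (A2), 23 (B6) and 4 (B2).

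Every scan carries the same RNA, so that a change between scans is one of the measurement and not of the cells. The scans of an array are repeated readings of the same hybridization, and the p-values below measure technical spread only. The markers of the line were looked up on array C (scan C1, standard protocol). The thyroid transcription factors PAX8 and NKX2-1 had signals of 757 and 766 there. Thyroglobulin (TG), the thyrotropin receptor (TSHR) and FOXE1, which are defining genes of differentiated thyroid, had only 40.7, 38.9 and 39.9, below the median of 51.0 over all probe sets of that scan. HHEX and SLC5A5, further thyroid markers, had 176 and 87.7, above that median. CDH1, the epithelial cadherin, had 32.3 and the epithelial marker KRT19 had 4.59, against 18362 for vimentin (VIM). The epithelial markers KRT18, KRT8 and EPCAM lay above the median, with 1408, 514 and 214.

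On these arrays a transcript is read out by a set of short oligonucleotide probes, and some sets bind several transcripts. A labelled fragment can bind a probe as its full complement or, more weakly, as a partial match, and the stringent wash, with warm buffer of low salt, strips weak duplexes faster than strong ones. Bright probe sets are mostly those of abundant transcripts, such as the ribosomal proteins, actin and the glycolytic enzymes. Dim probe sets hold a larger part of unspecific signal.

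The measured values are linear MAS5 signals, the manufacturer's summary of the probes of a set. Each scan had been scaled to a common level, and its mean after trimming 2% at either end was 250.02 to 250.06. A loss common to all probe sets is removed by that scaling. The study describes optical saturation of the scanner for a small share of the probes in the second series, and not in the first. Single probes were not analysed here, so that bright signals of the second series are given without knowing which of them hold saturated probes. All changes are given on the log2 scale as 7 minus 2 additional cycles, after each scan was centred on its own median, so that a change is relative to the median probe set. Without centring, the median change was -0.04 (A, second series), -0.15 (A, first series), -0.13 (B, second series) and -0.08 (B, first series).

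After the further 5 cycles the bright end of the signals stood higher relative to the median probe set. With limma on the 4 pairs, 666 probe sets were higher at 7 than at 2 additional cycles at an adjusted p below 0.05, which is 1.22% of all, and 1 was lower, which is 0.00183%. Without adjustment, 4397 were higher and 1349 lower at a p below 0.05. Each of the 666 was higher in all 4 pairs, and they belong to 416 genes where a single symbol is assigned. Their changes had a median of 0.47, and they ranged from 0.36 to 1.08 apart from 3 very dim sets with larger values. In all, 6837 probe sets (12.5%) were higher in all 4 pairs and 3868 (7.07%) were lower in all 4. The 4 pairs are repeated readings of 2 arrays, and the count differed between error models. With the array as the unit 0 passed in either direction (0 higher and 43 lower at an unadjusted p below 0.05), and likewise with the array as a random effect beside the pairs (2664 and 1104) and with all 16 scans of arrays A and B (2445 and 1159). The random-effect fit estimated a correlation of -0.25 between the pairs of an array. Being negative, it made no allowance for a likeness of these pairs. The fits by array took the changes as input, so that their variance trend followed the size of the change and not brightness. Their 0 calls can thus not be put down to the handling of the array alone. The count also depends on scaling, on the variance model and on single pairs. On the deposited scale 516 were higher and 4 lower. With scans anchored on the 100 brightest probe sets the direction turned, with 11 higher and 8274 lower, and 191 of the 666 kept a positive change. In either direction 0 passed with quantile normalization (1595 higher and 1656 lower at an unadjusted p below 0.05) or without a variance trend (1798 and 1606). Leaving out the second series of array A gave 1065 higher, and leaving out the first series of array A, the second series of array B or the first series of array B gave 0 each time, with 3283 to 3879 higher at an unadjusted p below 0.05.

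The 100 brightest probe sets of each scan held 7.92% (A7), 9.14% (A3), 9.59% (B7) and 11.3% (B3) of the summed signal at 7 additional cycles, against 7.40% (A6), 7.54% (A2), 8.70% (B6) and 9.65% (B2) at 2. The share was higher at 7 cycles in every pair. Of the 666 higher probe sets, 7 (1.05%) had all 4 scans at 7 cycles above all 4 at 2, against 0.159% of all probe sets. Within each array, which is a weaker condition, 300 (45.05%) had this, against 1.75% of all. These overlaps were counted on the signals before centring. The 666 were called from the same scans, so that a larger share among them was built in. The interquartile range of the log2 signals was 3.03 (A7), 3.07 (A3), 3.56 (B7) and 3.45 (B3), against 3.02 (A6), 2.91 (A2), 3.44 (B6) and 3.39 (B2), and it too was wider in every pair.

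The genes with the largest rise among those that passed were ANXA2P2, RPL22, EEF2, ATP6, COX7C, ACTB, TPT1, NXN, KPNA2 and FN1. They were taken from probe sets that carry 1 symbol and are brighter over the 8 scans than the median set. Their mean changes lay between 0.65 and 1.08 (adjusted p = 0.0187 to 0.0323, limma), and 6 of the 10 probe sets carry the suffix _x_at, by which the manufacturer marks sets that can also bind other transcripts.

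ANXA2P2, a pseudogene of annexin A2, had 3937 (A7), 4809 (A3), 15719 (B7) and 10970.2 (B3) at 7 additional cycles, against 1867 (A6), 3064 (A2), 4913 (B6) and 8620.5 (B2) at 2. Each scan at 7 cycles lay above its partner, but array A at 7 cycles stayed below the first series of array B at 2. The change was 1.08 (SE 0.18, n = 4 pairs, adjusted p = 0.0285, limma), and it was the only named rise above 2-fold.

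RPL22, a protein of the large ribosomal subunit, had 13447 (A7), 12816 (A3), 21241 (B7) and 27038 (B3), against 7321 (A6), 9117 (A2), 13068 (B6) and 19181 (B2). Within each array both scans at 7 cycles lay above both scans at 2, and the change was 0.78 (SE 0.08, adjusted p = 0.0187). The RPL22 sets 208768_x_at and 221775_x_at, also called, had smaller changes of 0.47 and 0.53. Its dimmer sets 221726_at and 214042_s_at had 0.35 and 0.19 and did not pass. EEF2, the elongation factor that moves the ribosome along the mRNA, had 11270.5 (A7), 7928 (A3), 21949 (B7) and 16284 (B3), against 5978 (A6), 6129.8 (A2), 13268 (B6) and 12799.6 (B2), with a change of 0.73 (SE 0.10, adjusted p = 0.024). This is the dimmer of 2 EEF2 probe sets among the calls, and the brighter one had a change of 0.49.

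ATP6, a mitochondrially encoded subunit of ATP synthase, had 10432 (A7), 19177 (A3), 11646 (B7) and 31352 (B3), against 8336 (A6), 14155 (A2), 5701 (B6) and 22529.7 (B2). On array B the second series was at both steps below every first-series scan of either array. COX7C, a subunit of cytochrome c oxidase, had 17917 (A7), 14487 (A3), 21894 (B7) and 22150.0 (B3), against 13988 (A6), 10167 (A2), 12031 (B6) and 15959 (B2). The changes were 0.71 for ATP6 (SE 0.12) and 0.69 for COX7C (SE 0.10). A dim ATP6 set, 242131_at, had 0.13 and did not pass. The COX7C sets 217491_x_at and 213846_at had 0.51 and 0.20, and the latter did not pass.

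ACTB, cytoplasmic actin, had 9869 (A7), 17568 (A3), 14897 (B7) and 29332 (B3), against 6229.8 (A6), 13149 (A2), 9664 (B6) and 21439 (B2). The second series was dimmer than the first on either array, and its changes were 0.72 on A and 0.82 on B, against 0.64 on A and 0.54 on B in the first. On array A this held for this probe set alone: the other 5 ACTB sets, the brightest one included, had changes of 0.06 to 0.32 in the second series and of 0.64 to 0.69 in the first. TPT1, the translationally controlled tumour protein, and FN1, the matrix protein fibronectin, had changes of 0.67 and 0.65 (SE 0.07 each). The other TPT1 sets had 0.49 to 0.55. NXN, a thioredoxin-like redox protein, and KPNA2, an importin that carries proteins into the nucleus, had 0.66 (SE 0.12) and 0.65 (SE 0.11). Another KPNA2 set, 201088_at, had 0.44.

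**Figure D1:**
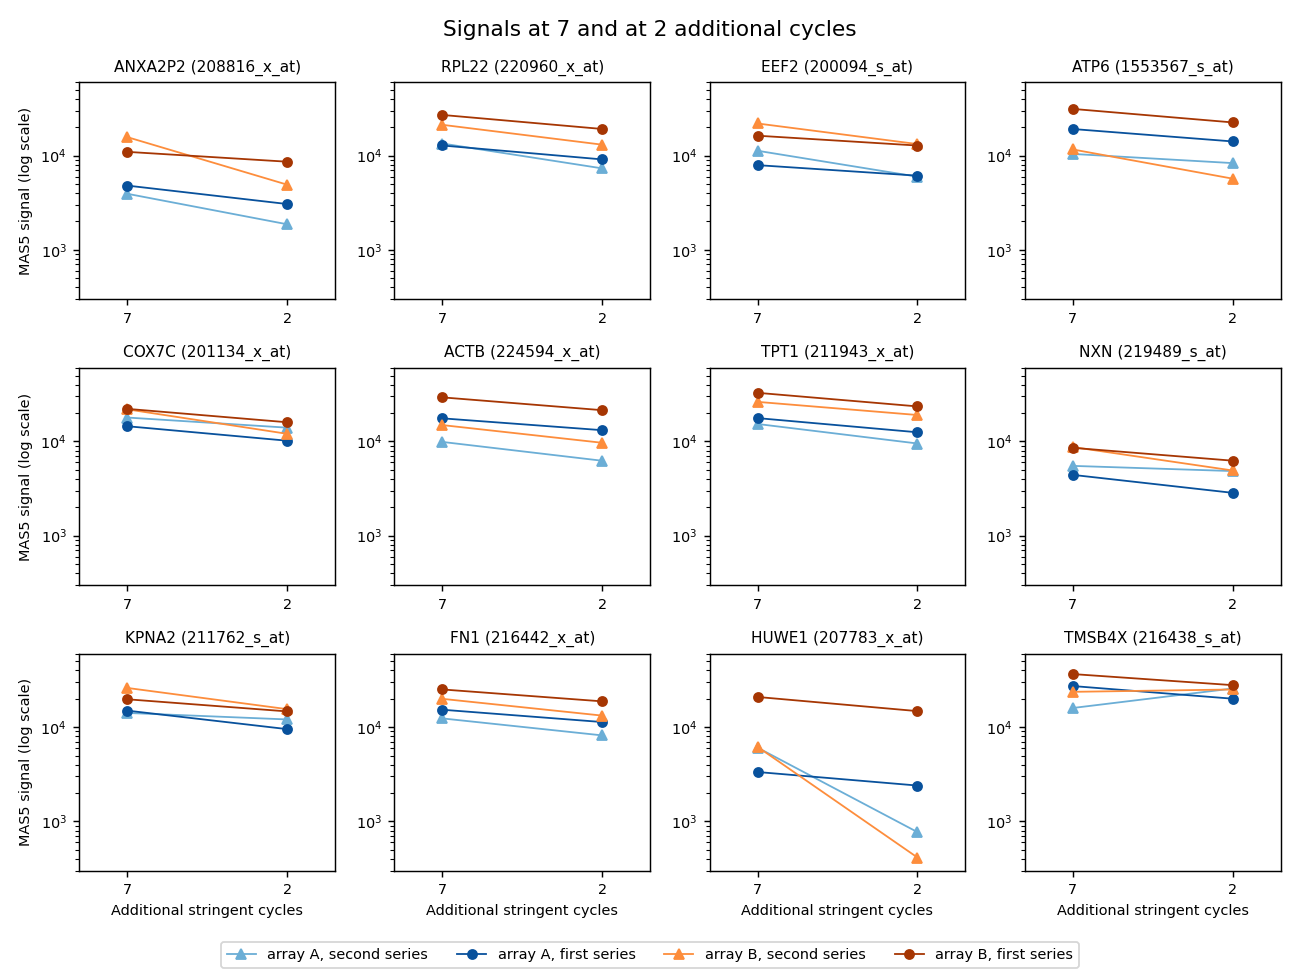
MAS5 signals (log axis) of the 10 named genes that rose, of HUWE1 and of TMSB4X at 7 (left) and at 2 (right) additional stringent cycles. Each line joins the 2 scans of an array and series (triangles, second series; circles, first series). The 10 named genes lay higher at 7 than at 2 in every pair, HUWE1 had steep lines in the second series only, and TMSB4X ran the other way in the second series, most of all on array A.

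Only 4 of the 666 had a mean change above 2-fold. Besides ANXA2P2 they are 3 probe sets at the dim end, named here after their values were seen: UGT2B4, an enzyme that conjugates glucuronic acid in the liver, and the sets 224296_x_at and 1564772_at without a symbol. UGT2B4 had 12.0 (A7), 20.7 (A3), 18.1 (B7) and 10.4 (B3), against 4.92 (A6), 5.34 (A2), 3.43 (B6) and 1.74 (B2), all of them below the median of their scans. The signals of all 3 sets were 72.6 at most, whereas the 27 control sets for transcripts of Bacillus subtilis, all without a call, had 1.77 to 169 on the 8 scans. Their folds are thus between signals no higher than those of the controls. Among the higher calls these 3 are the only ones outside the brightest decile on scan C1.

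The single lower call was 1559204_x_at, which has no symbol. Its signals were 229 (A7), 179.7 (A3), 31.5 (B7) and 52.5 (B3), against 393 (A6), 447 (A2), 96.7 (B6) and 122 (B2), a change of -1.09 (SE 0.21, adjusted p = 0.0447). Since no gene with a symbol passed in that direction, the 10 with the smallest p that were lower in all 4 pairs are given as values: THRAP3, WDR17, ZNF736, RPGRIP1, DIPK2B, B3GALT5, PLA2G5, RFTN2, ARIH2 and DRC8 had changes between -1.72 and -0.56 and adjusted p-values of 0.0781 to 0.153. THRAP3, a co-activator linked to splicing, had 103 (A7), 82.2 (A3), 29.9 (B7) and 28.6 (B3), against 198 (A6), 189 (A2), 148 (B6) and 93.8 (B2). This is a dim set of THRAP3, and the brightest one, at 805 on scan C1, had a change of 0.20 (adjusted p = 0.475). ARIH2 and DRC8 are likewise named by a dimmer set, and their brightest sets had changes of 0.08 and -0.16. WDR17 had 299, 385, 262 and 244 on the same scans at 7 cycles, against 546, 515, 518 and 355 at 2. All 10 were dim, with 37.9 to 320.4 on scan C1, whereas the 10 named rises had 4852 to 20969.

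Probe sets were ranked for brightness on scan C1, which is on neither side of the change. Of the 666 higher probe sets, 663 fell into the brightest of 10 deciles (signals from 822 upward), where they are 12.1% of the members. The median change of that decile was 0.13 (A, second series), 0.40 (A, first series), 0.27 (B, second series) and 0.17 (B, first series), and 61.8% of its probe sets were higher in all 4 pairs. In the dimmest decile the medians were -0.05, -0.15, -0.02 and -0.01 in the same order. The difference of the brightest minus the dimmest decile came to 0.30 ± 0.18 (SD, n = 4 pairs), with 0.18 (A, second series), 0.56 (A, first series), 0.29 (B, second series) and 0.17 (B, first series). Quantile normalization forces a shared distribution on the scans, and with it this difference was -0.045.

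**Figure D2:**
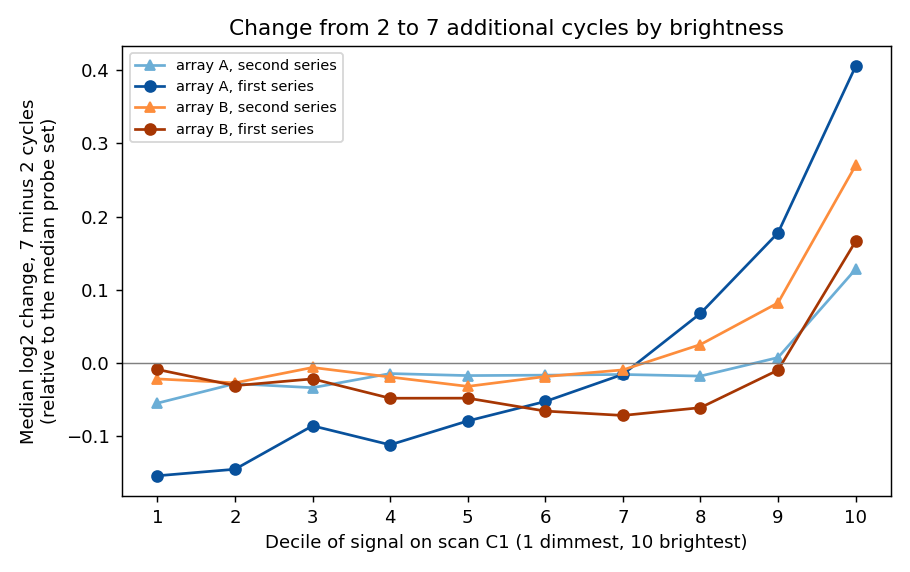
Median log2 change (7 minus 2 additional cycles, relative to the median probe set) in deciles of the signal on scan C1, for each array and series. The medians stay below 0 up to decile 7 in all 4 pairs and reach 0.13 to 0.40 in decile 10.

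The medians did not climb steadily along the scale. In deciles 1 to 7 every median was below 0 in all 4 pairs. The mean over the pairs was -0.06 in the dimmest decile, -0.03 in decile 7, 0.0038 in decile 8 and 0.06 in decile 9. In the first series of array A, which had met just 2 stringent cycles before, they ran from -0.15 in decile 1 to -0.02 in decile 7, and in the other 3 pairs the lowest median of these deciles was -0.07. The spread of single probe sets was wide at the dim end: the median SD of the 4 changes of a probe set was 0.98 in the dimmest decile and 0.17 in the brightest.

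At the very top the first series reached a plateau. On array A the first-series median was 0.67 for ranks 1 to 50, 0.67 for ranks 51 to 100, 0.67 for ranks 101 to 250 and 0.63 for ranks 251 to 500. It was 0.44 for ranks 1001 to 2500 and 0.30 for ranks 2501 to 5467. On array B the same bins gave 0.50, 0.50, 0.50 and 0.46, then 0.21 and 0.08. The 500 brightest probe sets were all higher at 7 cycles in the first series, and their changes had an SD of 0.06 on array A and 0.05 on array B.

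In the second series, for which saturation was described, the spread grew again at the very top. For the 500 brightest probe sets array A had a median change of 0.28 (SD 0.27) and array B of 0.51 (SD 0.40). There 481 of the 500 lay above 0 on array A and 497 on array B, and 6 on array A and 19 on array B were above 2-fold, against 0 on either array in the first series. Ranks 1 to 50 had a median signal of 16404 on A7 and 22085 on A3, and of 23872 on B7 and 34475 on B3, so that the very brightest sets were dimmer in the second series. Ranks 501 to 1000 ran the other way, with 6614 on A7 and 5565 on A3, and 9374 on B7 and 8706 on B3.

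**Figure D3:**
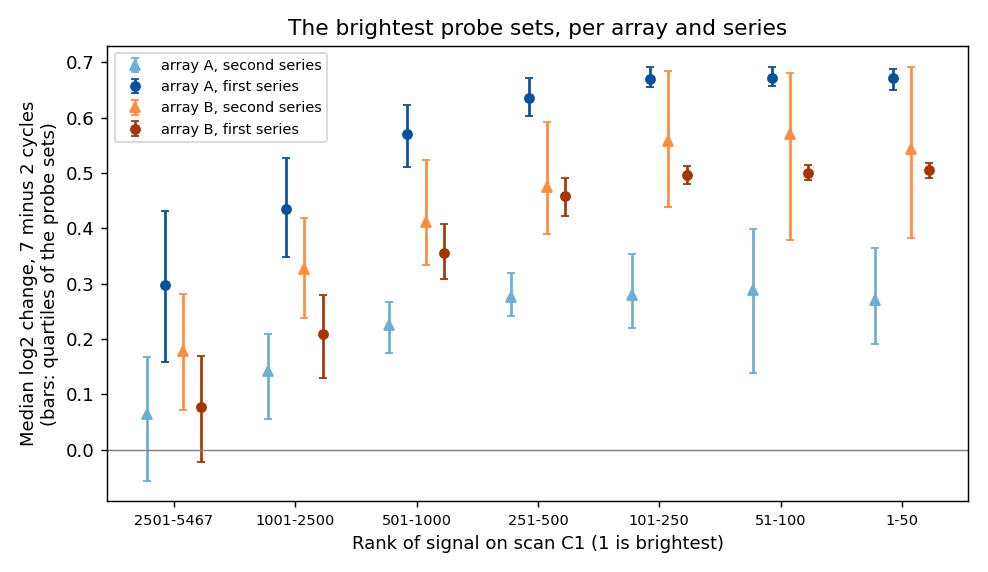
Median log2 change (7 minus 2 additional cycles) for bins of the brightest probe sets, ranked on scan C1, with bars from the lower to the upper quartile of the probe sets. In the first series (circles) the bars shrink toward the brightest bins and the medians settle near 0.67 on array A and 0.50 on array B, while in the second series (triangles) the bars widen again in the 3 brightest bins.

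The share of called probe sets was 68.0% for ranks 1 to 50, 72.0% for ranks 51 to 100, 80.7% for ranks 101 to 250 and 90.4% for ranks 251 to 500, then 39.2% for ranks 501 to 1000, 3.2% for ranks 1001 to 2500 and 0.0674% for ranks 2501 to 5467. Ranks 1 to 250 had a smaller share of calls than ranks 251 to 500 and wider second-series quartiles, whereas below rank 500 the changes themselves were smaller.

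Several of the best-known abundant transcripts are among the bright sets that did not pass. TMSB4X, the actin-binding thymosin beta 4, had 15966 (A7), 27330.1 (A3), 23712 (B7) and 36619.7 (B3), against 25715 (A6), 20057 (A2), 25113 (B6) and 27933 (B2). Its changes relative to the median set were -0.63 and 0.11 in the second series of arrays A and B and 0.67 and 0.48 in the first (mean 0.16, SE 0.17, adjusted p = 0.807). Whether saturation had a part in this or in the next genes was not tested. The 3′ control set of GAPDH, the glycolytic glyceraldehyde 3-phosphate dehydrogenase, had 11437 (A7), 21998 (A3), 21321 (B7) and 34635 (B3), against 17001 (A6), 15892 (A2), 15748 (B6) and 26135 (B2), with a mean change of 0.33 (SE 0.17, adjusted p = 0.55). Of the 6 GAPDH sets the 5′ control set, almost as bright at 22245 on scan C1, was called, with a change of 0.50 (adjusted p = 0.0269). UBB, a ubiquitin gene named after its values were seen, had 7858 on A7 and 23042 on A3, against 16138 on A6 and 17248 on A2. In each of the 3 the lone negative change came from the second series of array A.

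S100A6, a calcium-binding protein, also named after its values were seen, was low at 2 cycles of the second series. It had 17882 (A7), 25107 (A3), 11819 (B7) and 33348 (B3), against 7396 (A6), 18078 (A2), 1889 (B6) and 26005 (B2). Its changes were 1.33 and 2.84 in the second series of A and B and 0.70 and 0.44 in the first. The mean of 1.33 did not pass (SE 0.36, adjusted p = 0.209).

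**Figure D4:**
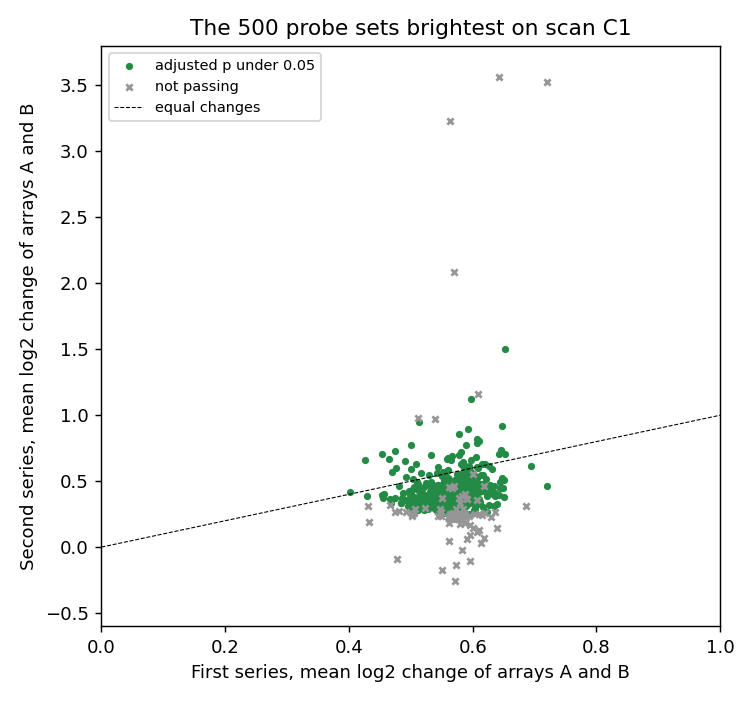
Mean log2 change of arrays A and B in the second series (vertical) against the first series (horizontal) for the 500 probe sets brightest on scan C1; the axes have different scales and the dashed line marks equal changes. First-series values lie between 0.40 and 0.72, and second-series values between -0.26 and 3.57.

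An interaction term, second minus first series, tested whether the series differed. It passed for 2 probe sets, which is 0.00366% of all, and at an unadjusted p below 0.05 for 1081 in the positive and 1037 in the negative direction. The set of HUWE1, a ubiquitin ligase, is 207783_x_at. It had 6065 (A7) and 6184 (B7) against 769 (A6) and 414 (B6) in the second series, and 3342 (A3) and 20919 (B3) against 2400.2 (A2) and 14801 (B2) in the first. The changes were 3.04 and 4.10 in the second series and 0.70 and 0.58 in the first, a difference of 2.93 (adjusted p = 0.0341, limma). It was not called without the first series of array A (2.98, adjusted p = 0.652) or without the first series of array B (2.87, adjusted p = 0.679), nor without a variance trend (adjusted p = 0.984) or with all 16 scans (adjusted p = 1.00). Another HUWE1 set, 208598_s_at, stood at 1305 on scan C1, where 207783_x_at had 15591, and its changes were -0.03 and 0.20 in the second series and 0.40 and 0.20 in the first.

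The other call, 217092_x_at, has no symbol. It had 16629.7 (A7) and 16685 (B7) against 1156 (A6) and 745 (B6) in the second series, and 21108 (A3) and 8225 (B3) against 15239 (A2) and 9554 (B2) in the first, a difference of 4.01 (adjusted p = 0.00397). As in HUWE1, the scans at 2 cycles of the second series were the low ones on either array, and a part of saturation in these values was not tested. The difference between array A and array B in the same change passed for 0 probe sets (0%, limma), with 1333 positive and 1147 negative at an unadjusted p below 0.05. Array B had more stringent cycles behind it than array A at every step.

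Gene groups are given with 1 probe set per gene, the brightest on scan C1. Over all 19775 genes the median change was 0.07, and 403 genes (2.04%) were higher and 0 lower by limma (2559 and 392 at an unadjusted p below 0.05). Cytosolic ribosomal proteins, the structural proteins of the ribosome and the brightest list with a median of 18128 on scan C1, had 26 of 32 measured genes higher and a median change of 0.50. RPS16, of the small subunit, had 19967 (A7), 20118 (A3), 26233 (B7) and 33805 (B3), against 16248 (A6), 15190.5 (A2), 20647 (B6) and 25684 (B2), a change of 0.50 (SE 0.07, adjusted p = 0.0247). RPL7, of the large subunit, had a change of 0.46 (SE 0.08, adjusted p = 0.0323). The list's median was 0.36 on the deposited scale, 0.02 after quantile normalization and -0.02 with scans anchored on the 100 brightest probe sets, a scale on which the median of all probe sets was -0.49.

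Cytoskeletal genes had 13 of 22 higher and a median of 0.43. TMSB10, another thymosin, had a change of 0.62 (SE 0.07, adjusted p = 0.0187), and vimentin, an intermediate filament of mesenchymal cells, 0.52 (SE 0.07, adjusted p = 0.0254). Proteasome subunits, which degrade ubiquitin-tagged proteins, had 12 of 25 higher and a median of 0.42, and all 25 were higher in all 4 pairs. The brightest of them on scan C1, the ATPase PSMC2, had 13117 (A7), 13898 (A3), 19281 (B7) and 25494 (B3), against 11679 (A6), 9289.9 (A2), 12464 (B6) and 19238 (B2), a change of 0.59 (SE 0.10, adjusted p = 0.0304).

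Translation factors had 10 of 22 higher and a median of 0.40. EEF1A1, which brings aminoacyl-tRNA to the ribosome, had a change of 0.65 (SE 0.07) and EIF1, which helps to select the start codon, of 0.54 (SE 0.07). Oxidative phosphorylation had 12 of 31 higher and a median of 0.33, with ATP5F1A, the alpha subunit of ATP synthase, at 0.53 (SE 0.08). Glycolysis had 7 of 18 higher and a median of 0.39. Its brightest members GAPDH and LDHA, lactate dehydrogenase A, were not among the 7 by their brightest sets. LDHA had a change of -0.08 in the second series of array A and of 0.33 to 0.67 in the other pairs (adjusted p = 0.209). With quantile normalization the medians of these 5 lists lay between -0.01 and 0.03.

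Lists of moderate brightness had few calls. Mitochondrial ribosomal proteins, which build the ribosomes of the mitochondria and had a median of only 1499 on scan C1, had 2 of 36 higher and a median change of 0.23. Cell cycle genes had 2 of 33 higher and a median of 0.25. One of these is thymidylate synthase (TYMS), an enzyme of nucleotide synthesis, at 19616 (A7), 17103 (A3), 31212 (B7) and 30898 (B3), against 14517 (A6), 12469 (A2), 23749 (B6) and 22707 (B2), a change of 0.57 (SE 0.07, adjusted p = 0.0187). Matrix and mesenchymal genes had 4 of 25 higher and a median of 0.25, with FN1 at 0.53 by its brightest set.

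Immediate early genes, which are transcribed within minutes of a stimulus, had 1 of 20 higher, JUND at 0.36 (SE 0.07, adjusted p = 0.042). Epithelial genes had 0 of 19 higher. The brightest of them, the tight junction protein TJP1, had 6233 (A7), 4803 (A3), 9104 (B7) and 7424 (B3), against 5544 (A6), 4124 (A2), 7342 (B6) and 6558 (B2), and its change of 0.36 did not pass (SE 0.08, adjusted p = 0.0651). No list had a member that passed as lower. With anchoring on the 100 brightest every list had a negative median, and with quantile normalization those of the 5 lists of moderate or low brightness named here lay between -0.01 and 0.07.

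**Figure D5:**
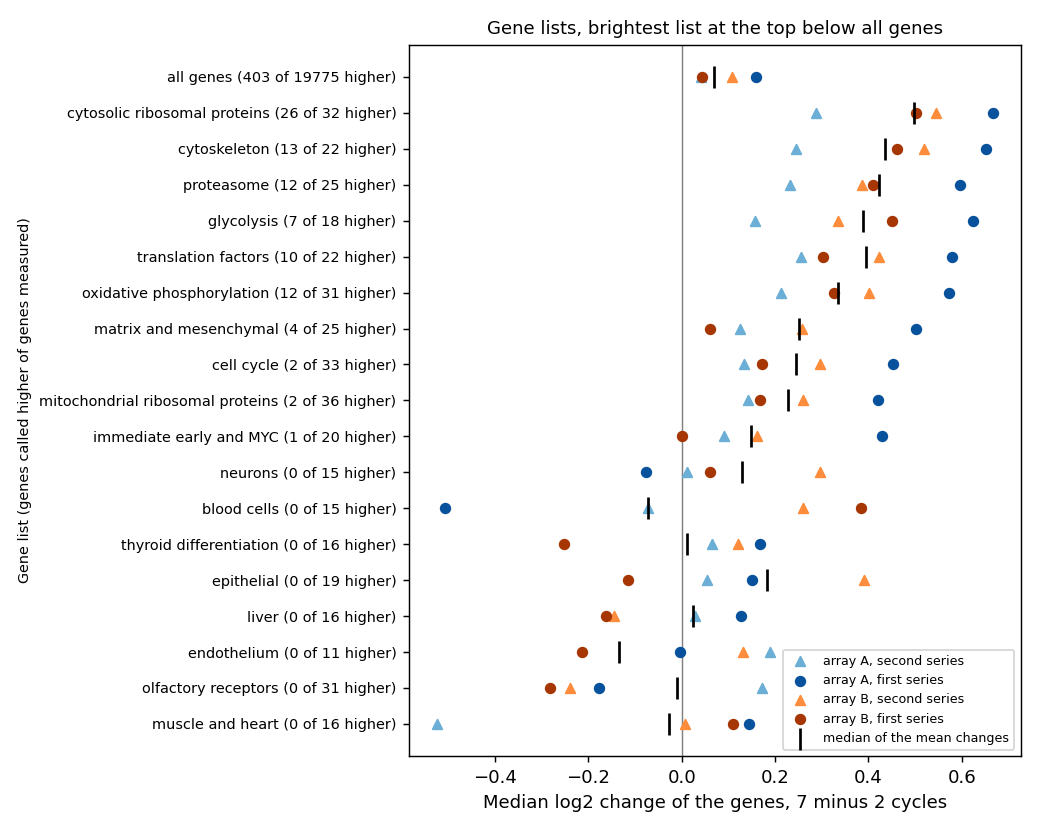
Median log2 change (7 minus 2 additional cycles) of the genes of each list in each array and series, with the median of the genes' mean changes as a black bar; lists run from the brightest on scan C1 at the top to the dimmest, beneath all genes. Every pair of the lists down to mitochondrial ribosomal proteins lies above 0, and the dim lists scatter to either side of it.

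None of the 16 measured thyroid genes passed, and their median change was 0.01. PAX8, a transcription factor of the thyroid lineage, had 1309.8 (A7), 1230.5 (A3), 863 (B7) and 876 (B3), against 1295 (A6), 1135 (A2), 852 (B6) and 848 (B2). The scan at 7 cycles was above its partner in each pair by less than array A was above array B, and the change was 0.19 (SE 0.09, adjusted p = 0.501). NKX2-1 had 629 (A7), 656 (A3), 762 (B7) and 885 (B3), against 533 (A6), 756 (A2), 764 (B6) and 648 (B2), a change of 0.26 (SE 0.11, adjusted p = 0.434). Thyroglobulin had 160.1 (A7), 58.2 (A3), 40.4 (B7) and 84.6 (B3), against 109.6 (A6), 151 (A2), 53.5 (B6) and 90.1 (B2). Its changes had either sign, as had those of FOXE1, which ranged from -2.89 to 1.31.

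Marker lists of tissues that the line does not stem from (blood, liver, muscle and heart, neurons, endothelium) and olfactory receptors gave the level of dim probe sets. Of their 104 measured genes 0 were higher and 0 lower, and the median changes of the 6 lists lay between -0.14 and 0.13. Their median signals on scan C1 were 48.4 at most, below the 101.1 of all genes, although ACTC1 of the muscle list had 1303 and NEFL of the neuron list 957. The summed signal of the blood list was 715 to 1416 at 7 cycles, against 612 to 2183 at 2.

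Biotin-labelled control transcripts are added to the hybridization mix in rising amounts, in the order bioB, bioC, bioD and cre. These amounts do not depend on the cells, but the changes of the control sets still depend on how each scan was scaled and centred. The mean change was 0.16 over the 6 sets of bioB, 0.22 over the 4 of bioC, 0.36 over the 4 of bioD and 0.39 over the 4 of cre. These means over the pairs rose in the order of the amounts, as did those of the first series on either array. The second series did not keep that order. On array A it had 0.126, 0.123, 0.232 and 0.122 from bioB to cre, and on array B 0.108, 0.226, 0.363 and 0.291. No set of bioB or bioC passed, against 2 of bioD and 3 of cre. One cre set, AFFX-r2-P1-cre-3_at, had 19895 (A7), 25469 (A3), 27800.0 (B7) and 38752 (B3), against 25134 (A6), 18583 (A2), 30219 (B6) and 28788 (B2), with changes relative to the median set of -0.28 and 0.07 in the second series of A and B and of 0.68 and 0.51 in the first. The other 3 passed. AFFX-r2-P1-cre-5_at, for example, had a change of 0.46 (SE 0.08, adjusted p = 0.0308). In the second series these 3 had changes between 0.23 and 0.40, so that the negative value was seen in the brightest of the 4 cre sets alone. With anchoring on the 100 brightest probe sets the 5 spike-in sets followed had changes of -0.29 to -0.06, and with quantile normalization the bioD and cre sets among them had -0.16 to -0.0080.

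Different probe sets of a gene are aimed at the same RNA but differ in brightness. For 10523 genes with several sets of 1 symbol, the set brightest on scan C1 had the larger change in 53.3% (A, second series), 58.2% (A, first series), 55.4% (B, second series) and 53.7% (B, first series). Where the sets were over 100-fold apart (908 genes) the shares were 58.0%, 71.3%, 65.3% and 58.5% in the same order. In this group 149 genes had the larger change in the brightest set in all 4 pairs and 17 in the dimmest. Fibronectin is an example: its 4 sets at 17197 to 21881 on scan C1 had changes of 0.53 to 0.65, and its 3 sets at 249 to 310 had -0.27, -0.18 and 0.05.

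The classes of probe sets differed in their share of calls. Of the _x_at sets 4.83% were higher, of the _s_at sets, which bind several transcripts by design, 2.28%, and of the plain _at sets 0.516%. Within the brightest decile these shares were 28.0%, 11.2% and 8.02%. Sets assigned to several symbols had 5.44% higher, those of protein-coding genes 1.38% and those of long non-coding RNAs 0.112%. The median signal on scan C1 was 83.4 for _x_at sets, 148 for _s_at sets and 40.8 for plain _at sets. Within the brightest decile the classes were not matched for brightness. There _x_at sets were 31 of the 50 at ranks 1 to 50, and 276 of the 2967 at ranks 2501 to 5467. No test was made between classes.

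Set beside the steps before and after it, which share its scans, the step from 2 to 7 cycles was intermediate on array A. The brightest minus the dimmest decile per cycle was 0.37 from 0 to 2 cycles, 0.04 from 2 to 7 and 0.0054 from 7 to 17 in the second series of array A, and 0.74, 0.11 and 0.02 in the first. On array B it was 0.05, 0.06 and 0.00 in the second series and 0.05, 0.03 and 0.02 in the first. Over the whole step from 2 to 7 cycles array B in the second series gained 0.29, more than the 0.11 from 0 to 2.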

How the data were processed

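The authors summarised the probe intensities of each scan to MAS5 signals and deposited these intensity values on a linear scale, scaled per scan; the version of MAS5 is not given in the sources used here. Detection calls and single probe values were not analysed here.

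Signals were taken to log2 and centred on each scan's median over all 54675 probe sets. limma 3.58.1 (R 4.3.3) fitted 7 against 2 additional cycles with a variance trend and robust moderation, with the pair of array and series as a block (3 residual degrees of freedom), and the differences between series and between arrays as interactions (2 residual degrees of freedom). p-values were adjusted by Benjamini-Hochberg over all probe sets, with a threshold of 0.05. Scans of a pair share an array and a series by their titles, and the deviations of a scan at 7 cycles correlated at 0.49 to 0.63 with those of its partner and at most at 0.18 with any other. The fits were also run on simulated data with noise drawn independently for each scan. That run could not test for saturation or for correlated readings of an array.

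The platform annotation gave 1 symbol for 41097 probe sets, several for 1801 and none for 11777, and 41043 of the first were found in RefSeq. The brightest probe set on scan C1 stands for a gene. Named genes are the 10 with the largest rise among those that passed and were higher in all 4 pairs, with 1 symbol and a signal above the median set, or, where none passed, the 10 with the smallest p under the same filters. The brightest 3 members of each list, thyroid genes and spike-ins could be named too. The members and the lists were chosen with earlier results of these data known. Alternatives were other scalings, an offset of 16, the probe sets brighter than the median, other error models, all 16 scans of arrays A and B, and leaving out each pair.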

Additional observations from a re-analysis of the deposited data

Results flagged for a closer look

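Of 160 groups of 4 values, 6 had a lowest or highest value far from the other 3, and chance alone marks about 1 in 20. The first series of array B at 2 additional cycles stood apart for 3 genes: RPL7 had 29313 there, against 17834 to 19036 on the other 3 scans at 2 cycles, GAPDH (3′ control set) had 26135 against 15748 to 17001, and WDR17 had 355 against 515 to 546. ZNF736 had 189 in the first series of array A at 2 cycles, against 84.6 to 92.9 on the other 3 scans. The second series of array A stood apart in the change of 2 bright sets: GAPDH (3′ control set) had -0.51, against 0.49 to 0.69 in the other pairs, and UBB had -0.98, against 0.51 to 0.71.

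The probe sets 207783_x_at (HUWE1) and 217092_x_at (no symbol) changed differently in the 2 series by the interaction test: the second minus the first series was 2.93 for HUWE1 and 4.01 for the other.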

How the results depend on the processing

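The number of probe sets higher and lower at 7 than at 2 additional cycles moved with the scaling and the error model. Against 666 and 1, there were 516 and 4 on the deposited scale, 659 and 4 with an offset of 16, 1300 and 9 over probe sets brighter than the median, 11 and 8274 with scans anchored on the 100 brightest, and 0 and 0 with quantile normalization (1595 and 1656 at an unadjusted p below 0.05), without a variance trend (1798 and 1606), with all 16 scans (2445 and 1159), with the array as the unit (0 and 43) and with the array as a random effect beside the replicate block (2664 and 1104). The correlation estimated for the array as a random effect was -0.25. The fits by array also had a variance trend along the change and not along brightness. Without the replicate block that pairs the scans, 0 and 0 passed (174 and 246 unadjusted). Leaving out 1 pair gave 0 to 1065 higher and 0 to 7 lower. Chosen after seeing the data, the first series alone gave 542 and 26, the second series alone 2 and 0, array A alone 20 and 19, and array B alone 800 and 5. Of the 666, 427 kept a positive change with quantile normalization and 191 with anchoring, and all 666 in each other setting except that over the brighter probe sets, which tested 663 of them. Since each of the 666 was higher in every pair, leaving out pairs or another error model could not turn the sign.

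The median change of all probe sets was -0.11 on the deposited scale and -0.49 with anchoring. The difference between series was called for 2 or 3 probe sets under every scaling, for 0 without a variance trend, for 1 with all 16 scans, and for 0 to 6 with 1 pair left out. The difference between arrays had 0 calls in every setting except with 1 pair left out (0 to 15). The brightest minus the dimmest decile was -0.045 with quantile normalization, 0.18 to 0.29 with an offset of 16 or another ranking scan, and 0.22 to 0.34 with 1 pair left out. The share of genes whose brightest probe set gained was 53.7 to 54.5% with an offset of 16 or another ranking scan, and 54.1 to 55.7% with 1 pair left out. This share was not computed with quantile normalization.

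With quantile normalization the change was -0.028 for RPL7, -0.20 for GAPDH, -0.16 for LDHA, -0.28 for TMSB4X, -0.019 for TJP1, -0.063 for JUND, -0.29 for UBB, -0.043 for bioD-3, -0.16 for cre-3 and -0.0080 for cre-5. With anchoring it was -0.059 for RPL7, -0.014 for RPS16, -0.19 for GAPDH, -0.15 for LDHA, -0.36 for TMSB4X, -0.16 for TJP1, -0.15 for JUND, -0.33 for PAX8, -0.26 for NKX2-1, -0.29 for UBB, -0.25 for bioB-M, -0.29 for bioC-3, -0.10 for bioD-3, -0.27 for cre-3 and -0.057 for cre-5. In the second series alone TMSB4X had -0.26, cre-3 -0.10 and UBB -0.13, UBB had -0.17 on array A alone, and with 1 pair left out TMSB4X had -0.014 (without the first series of array A) to 0.42. None of the 10 named rises changed sign in any setting. They were picked for a rise in all 4 pairs, so that only another scaling could have turned their sign. The cause of these differences was not tested. With 4 pairs of 2 arrays and 1 RNA the precision is limited by their number, and most at the dim end.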
